A study of Mus musculus with 2 samples.

Results

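The genes described are those of the cytosolic ribosomal proteins, taken as every row of the count tables whose symbol is Rps or Rpl followed by a number, with or without a paralogue suffix, together with Rpsa, Rplp0, Rplp1 and Rplp2. This rule gave 83 of 31053 genes, 32 of the small and 51 of the large ribosomal subunit, all annotated as protein coding and spread over 19 chromosomes. A few ribosomal proteins, such as Fau, Rack1 and Rpl36al, are named otherwise and were followed as a separate list. Lung cells came from C57BL/6JRj mice (an inbred strain), for which the labels name no genetic change, aged 3 months (young) or 18 months (old). Young LPS and old LPS mice received lipopolysaccharide, the endotoxin of Gram-negative bacteria, at 2.5 mg/kg body weight, and young control and old control mice received saline; all were killed after 24 h. Lung cells were freed with dispase, sorted for the epithelial surface protein EpCAM with dead cells excluded by DAPI, marked with 1 hashtag antibody per group, and pooled on 1 lane for 10x 3′ single-cell RNA sequencing. The experiment was done on 2 lanes, which gave 8 libraries, 2 per group, called 1 and 2 after their lane; neither the number of mice nor their sex is given in the sources used here, and the p-values measure the spread between these libraries.

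Cytosolic ribosomes consist of a small subunit, which decodes the mRNA, and a large subunit, which joins the amino acids, each built from ribosomal RNA and a fixed set of proteins. Most of these proteins are needed in equal numbers, their mRNAs are among the most abundant of a cell, and many of these mRNAs begin with a run of pyrimidines (a 5′ terminal oligopyrimidine tract) through which mTOR signalling and the protein Larp1 control their translation. Alveolar epithelial type II (AE2) cells, which the study set out to isolate, make and secrete surfactant proteins and lipids and can renew the alveolar epithelium.

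The sequences around the transcription start are shown for 4 genes called higher (Rps2, Rplp0, Rpl12, Rpl22l1) and 2 called lower (Rps19, Rpl27a) after LPS, so that the tract can be seen where it is present. Each is 30 bases on the plus strand, from 15 bases before the annotated start to 15 bases from it, taken from RefSeq (build GRCm38.p6). Capitals mark a C followed by at least 5 C or T bases within the window.
Rps2, chr17:24720048-24720077: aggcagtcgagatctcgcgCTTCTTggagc
Rplp0, chr5:115559452-115559481: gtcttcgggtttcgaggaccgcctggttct
Rpl12, chr2:32961697-32961726: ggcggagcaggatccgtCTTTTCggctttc
Rpl22l1, chr3:28805493-28805522: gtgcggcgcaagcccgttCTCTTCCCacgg
Rps19, chr7:24884577-24884606: tccgaaatctcgcgagactcgacgcccgac
Rpl27a, chr7:109519180-109519209: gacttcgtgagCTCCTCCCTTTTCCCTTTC
Of the 83 genes, 63 had a RefSeq promoter entry, and 33 of these (52.4%) held such a tract in the window, against 22.4% of 27025 promoters of all genes. The motif CCGGAA, read on either strand of the 300 bases around the start, was present in 32 (50.8%), against 15.2% of all promoters. Among the genes called higher after LPS at either age, 9 of 16 with an entry held the tract and 9 held CCGGAA; among those called lower, 3 of 6 held the tract and 2 held CCGGAA. A match describes these letters only, and windows that lack them, such as those of Rplp0 and Rps19, say no more than that for the annotated start.

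The tables held 14048 barcodes and 85889264 UMIs (unique molecular identifiers, each counting 1 captured mRNA molecule), with 6228266 to 15435789 UMIs per library. After filtering, 11232 cells were clustered without the 83 genes. AE2-like cells made up 8833 of them (78.6%), with 738 to 1416 cells and 4186148 to 12776256 UMIs per library, and the remainder carried markers of ciliated (904 cells), alveolar macrophage (519), dendritic (454), club or secretory (191), monocyte or macrophage (139), neutrophil (75) and B cells (43), with 74 cells left unnamed. The sort for EpCAM therefore held other epithelial cells and immune cells as well as AE2 cells. UMIs of each class were summed per library and given as CPM, that is, relative to the total of the sum, after TMM scaling; with 1 tag per molecule, CPM were not divided by transcript length. In the AE2-like sums the 8 AE2 markers together stood at 82682 to 117501 CPM in LPS libraries, against 267825 to 304464 in control libraries. The alveolar macrophage list stood at 62.2 to 72.6 CPM against 10.99 to 22.3, the platelet list at 133 to 203 against 15.1 to 23.8, and the ciliated list at 23.3 to 33.7 against 70.2 to 85.5. Median UMIs per AE2-like cell were 7602 to 9088 in LPS libraries, against 5729.5 to 7087.5 in control libraries, and mitochondrial genes took 6.04% to 6.601% of UMIs against 7.26% to 8.31%. The filter removed 12.1% to 34.7% of barcodes per library, most in young control library 1. The part of these shifts in the values below was not tested. Free RNA in the droplets was not subtracted.

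The family as a whole took 8.65% to 10.1% of AE2-like UMIs, and the share was higher in old than in young libraries. The 83 genes held 8.84% and 8.98% of UMIs in young LPS libraries 1 and 2, against 8.65% and 8.78% in young control libraries. They held 9.79% and 9.58% in old LPS libraries, against 10.1% and 9.32% in old control libraries. All 4 old libraries lay above all 4 young libraries, while the LPS and control libraries of the old overlapped. The 10 most abundant genes of AE2-like cells were chosen once over all libraries, with surfactant genes among them. They took 30.3% of UMIs in young LPS library 1 against 38.7% in young control library 1, so the family's share was also taken over the other genes. On that scale it was 12.7% and 12.96% in young LPS against 14.1% in both young control libraries, and 14.1% and 13.8% in old LPS against 15.5% and 14.7% in old control. The direction of the LPS difference in the young thus depended on the denominator, while within each treatment the old libraries lay above the young on both scales. Across treatments they did not on the second scale, where old LPS library 2 lay below both young control libraries. Small subunit genes held 45.2% of the family's UMIs in AE2-like cells on average.

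Levels differed widely among members. Averaged over the 8 AE2-like sums, Rps19, a small subunit protein mutated in human Diamond-Blackfan anaemia, was highest at 3289 CPM, and Rpl13 (2273 CPM), Rpl21 (2187 CPM) and Rps24 (2185 CPM) were also among the 5 most abundant. Rps27 (8.69 CPM) was the lowest of the 80 members that passed the filter on low counts. Near-identical copies listed as genes of their own held more UMIs than some parents, with Rps27rt at 103.6 CPM beside Rps27 at 8.90 CPM and Rpl10-ps3 at 36.1 CPM beside Rpl10 at 9.14 CPM, before TMM scaling. The values of Rps27, Rpl10, Rpl9, Rpl27 and Rps12 are therefore uncertain. Rpl10l, Rpl39l and Rpl3l, with 4, 5 and 2 UMIs in all AE2-like cells, did not pass the filter and are described with the paralogues.

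LPS changed individual members in both directions in the young. In AE2-like cells, 12 of 80 members rose (5 small and 7 large subunit), where 21.9% of the 11378 genes tested were called higher, and 4 fell (1 small and 3 large), where 18.4% of all genes were called lower (edgeR's quasi-likelihood test, Benjamini-Hochberg adjusted p below 0.05). The median log2 fold change of the members was 0.038, beside -0.012 over all genes, and 48 of 80 were above 0. The calls came to 15% and 5% of the members, below the shares of all genes in both directions. All 16 calls had the same sign in lanes 1 and 2. With 2 libraries per group a call favours such agreement in advance, so it is not separate support. With lane as a replicate block the number that fell was 7. These counts rest on each of the young libraries: without young LPS library 1, young LPS library 2, young control library 1 or young control library 2 the number that rose was 3, 5, 5 or 4 and the number that fell was 0, 2, 0 or 1. The number that fell was also 2 without old control library 1, and 8 without either old LPS library. With all deposited barcodes in place of AE2-like cells 4 rose and 0 fell, and DESeq2 called 7 and 2.

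In the old, 16 members rose after LPS (6 small and 10 large subunit), where 25.2% of all genes were called higher, and 7 fell (4 small and 3 large), where 23.4% were called lower, by the same test. The median log2 fold change was 0.10, beside -0.0085 over all genes, with 56 of 80 above 0. The calls came to 20% and 8.75% of the members, again below the shares of all genes. Each of the 23 kept its sign between lanes 1 and 2, which the test again favours in advance. Without old control library 2, 9 rose. Without old control library 1, old LPS library 1 or old LPS library 2, 1, 3 or 12 fell. With all deposited barcodes 4 rose and 0 fell, and DESeq2 called 11 and 4.

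Called higher at both ages were 9 genes, namely Rps2, Rplp0, Rpl12, Rpsa, Rpl11, Rpl29, Rpl39, Rps27l and Rpl7l1. Rps20, Rps25 and Rpl22l1 passed the test in the young alone. Those that passed in the old alone included Rpl13, Rpl23, Rps13, Rpl15, Rps18 and Rpl7a. Rps19, Rpl27a and Rpl5 were called lower at both ages, Rpl13a in the young alone, and Rpl21, Rps14, Rps21 and Rps15 in the old alone. Of 15 alternatives, 9 gave no call for Rpl13a and 5 none for Rpl5 in the young, and in the old 8 gave none for Rps14 and 10 none for Rps15. Passing at 1 age is not a difference between ages, which is tested further on.

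**Figure D1:**
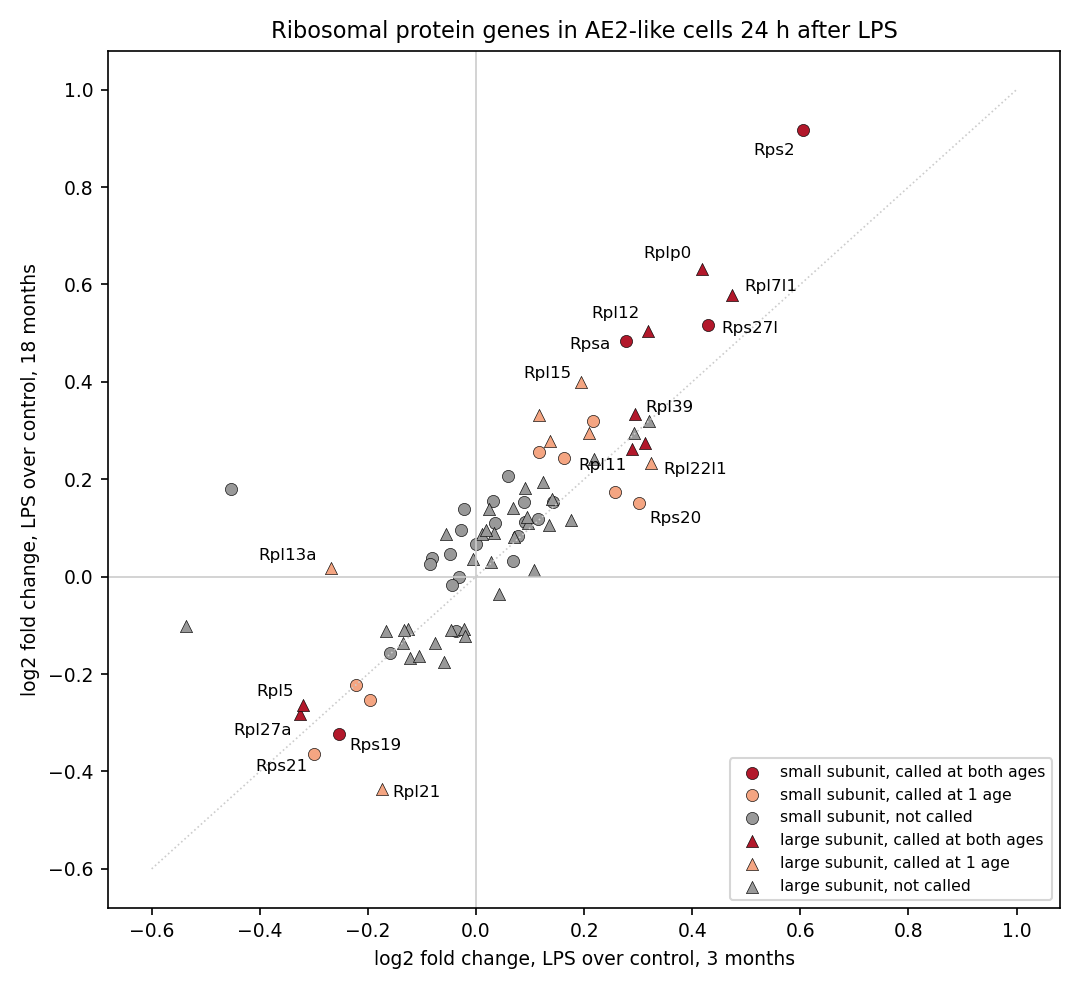
Log2 fold change of LPS over control in AE2-like cells at 3 months (x axis) and 18 months (y axis), 1 point per member tested (80), with circles for the small and triangles for the large subunit and colour for calls at an adjusted p below 0.05 in edgeR's quasi-likelihood test. Rps2 lies at the top right (0.61 and 0.92), Rpl21 and Rps21 lie lowest (-0.44 and -0.36 at 18 months), and the grey points at the far left are the low-count genes Rpl9 and Rps27.

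Rps2, which sits near the mRNA entry side of the small subunit, changed most. It stood at 1008 and 901 CPM in young LPS libraries 1 and 2, against 656 and 599 CPM in young control libraries. In old LPS libraries it stood at 1465 and 965 CPM, against 707 and 580 CPM in old control libraries. Every LPS library lay above every control library, and old LPS library 1 stood well above the other LPS libraries. The log2 fold change was 0.61 ± 0.20 (SE) in the young (adjusted p = 0.047, edgeR's quasi-likelihood test) and 0.92 ± 0.20 in the old (adjusted p = 0.0078). Over 15 alternatives the old value ran between 0.59 and 1.19 and was called in each, while 5 alternatives gave no call in the young.

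Rplp0 and Rpl12, which form the base of the stalk that recruits elongation factors to the large subunit, rose alongside. Rplp0 stood at 1899 and 1801 CPM in young LPS libraries, against 1416 and 1355 CPM in young control libraries, and at 2501 and 1960 CPM in old LPS libraries, against 1538 and 1340 CPM in old control libraries. The lowest LPS library was above the highest control library. Its log2 fold change was 0.42 ± 0.11 in the young (adjusted p = 0.0072, edgeR's quasi-likelihood test) and 0.63 ± 0.11 in the old (adjusted p = 0.00024). Rpl12 stood at 1006 and 959 CPM in young LPS, against 814 and 762 CPM in young control, and at 1353 and 1067 CPM in old LPS, against 901 and 805 CPM in old control. The groups of Rpl12 did not overlap either, and its log2 fold changes were 0.32 ± 0.11 and 0.50 ± 0.11 (adjusted p = 0.028 and 0.0012 by the same edgeR test), with no call in the young under 6 of 15 alternatives. The other stalk proteins, Rplp1 and Rplp2, which bind to Rplp0 as dimers, had log2 fold changes of 0.12 and 0.29 in the young and 0.20 and 0.29 in the old and did not pass the test.

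Rpsa, a small subunit protein also described as the laminin receptor precursor, stood at 1417 and 1343 CPM in young LPS libraries, against 1144 and 1133 CPM in young control libraries. In the old it stood at 1780.5 and 1446 CPM after LPS, against 1206 and 1099 CPM in controls, with log2 fold changes of 0.28 ± 0.10 and 0.48 ± 0.10 in the young and the old (adjusted p = 0.04 and 0.001, edgeR's quasi-likelihood test). Rpl39, a short protein that lines the exit tunnel of the nascent chain, stood at 1390 and 1450 CPM in young LPS, against 1096 and 1220 CPM in young control, and at 1588 and 1614 CPM in old LPS, against 1231 and 1308 CPM in old control. For both genes all LPS libraries lay above all control libraries. Rpl15, a large subunit protein, was called in the old alone, with 1063 and 934 CPM in old LPS libraries, against 792 and 722 CPM in old control libraries (log2 fold change 0.40 ± 0.10, adjusted p = 0.0027, edgeR).

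Rpl5 and Rpl11 form a particle with 5S ribosomal RNA and, outside the ribosome, bind the p53 regulator Mdm2; here they moved in opposite directions. Rpl11 stood at 666 and 745 CPM in young LPS, against 564 and 590 CPM in young control, and at 737 and 761 CPM in old LPS, against 619 and 629 CPM in old control. Rpl5 stood at 810 and 815 CPM in young LPS, against 1027 and 1003 CPM in young control, and at 925 and 956 CPM in old LPS, against 1197 and 1061 CPM in old control. Within each age the groups did not overlap for either gene. The log2 fold changes of Rpl11 were 0.29 ± 0.09 in the young and 0.26 ± 0.09 in the old (adjusted p = 0.018 and 0.024, edgeR's quasi-likelihood test), and those of Rpl5 were -0.32 ± 0.09 and -0.26 ± 0.09 (adjusted p = 0.0094 and 0.023).

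The most abundant member, Rps19, was among those that fell. It stood at 2834 and 2855 CPM in young LPS libraries, against 3561 and 3223 CPM in young control libraries, and at 3168 and 2984 CPM in old LPS libraries, against 4037 and 3655 CPM in old control libraries. Every LPS library lay below every control library. The log2 fold changes were -0.25 ± 0.09 and -0.32 ± 0.09 (adjusted p = 0.036 and 0.0087, edgeR's quasi-likelihood test), and 7 of 15 alternatives gave no call in the young. Rpl27a, a large subunit protein, stood at 1339.6 and 1386 CPM in young LPS, against 1744 and 1669 CPM in young control, and at 1400 and 1516 CPM in old LPS, against 1847 and 1702 CPM in old control. Its groups did not overlap, and its log2 fold changes were -0.32 ± 0.09 and -0.28 ± 0.09 (adjusted p = 0.0085 and 0.016 by edgeR).

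Rpl21, a large subunit protein, showed its fall in the old. It stood at 1854 and 2013 CPM in old LPS libraries, against 2748 and 2482 CPM in old control libraries, and at 1969 and 1978 CPM in young LPS, against 2289 and 2164 CPM in young control. The LPS libraries of both ages were alike, and the old control libraries were the highest of the 8. The log2 fold change was -0.44 ± 0.09 in the old (adjusted p = 0.00092, edgeR's quasi-likelihood test) and -0.17 in the young (adjusted p = 0.14). Rps21, a small subunit protein, stood at 1152 and 1408 CPM in old LPS libraries, against 1585 and 1710.0 CPM in old control libraries, lower after LPS in each lane (log2 fold change -0.36 ± 0.12, adjusted p = 0.02 by edgeR).

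**Figure D2:**
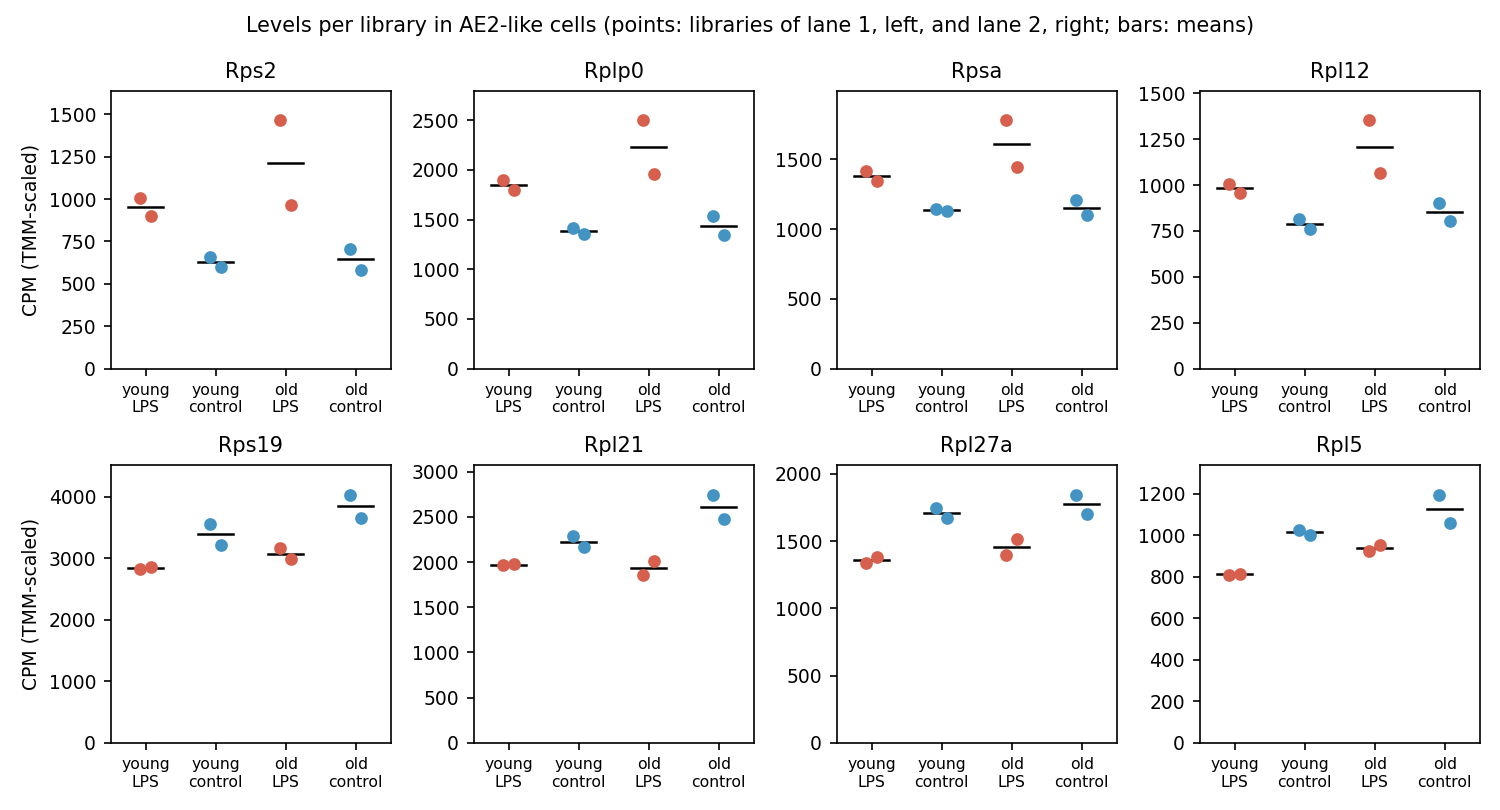
TMM-scaled CPM of 8 members in AE2-like cells, 1 point per library (lane 1 left, lane 2 right) with a bar at the group mean, all axes starting at 0. In the upper row (Rps2, Rplp0, Rpsa, Rpl12) the LPS libraries lie above the control libraries, and in the lower row (Rps19, Rpl21, Rpl27a, Rpl5) they lie below the control libraries of the same age.

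To see which members departed from the family, the libraries were scaled to the summed UMIs of the members in place of TMM. In the young, 11 members then stood higher after LPS, where 20.2% of all genes were called higher on this scale, and 6 stood lower, where 19.2% were called lower. In the old, 11 stood higher (22.1% of all genes) and 7 lower (25.6%); with lane as a replicate block the last number was 11. Rps2 departed most, with a log2 fold change relative to the family of 0.58 in the young and 0.86 ± 0.17 in the old (adjusted p = 0.0023, edgeR's quasi-likelihood test). Rplp0 (0.39 and 0.58) and Rpl7l1 (0.44 and 0.52) followed. On the lower side Rps19 (-0.28 and -0.38) was called at both ages, Rpl27a and Rpl5 (both -0.35) led in the young, and Rpl21 (-0.49) and Rps21 (-0.42) led in the old. Without young LPS library 1, young LPS library 2, young control library 1 or young control library 2 the number higher in the young was 1, 5, 2 or 2, and over all leave-outs the number lower in the young ran between 1 and 11; in the old 7 were higher and 4 lower without old control library 1, and 15 were lower without old LPS library 2.

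AE2-like cells fell into 9 clusters, and the members that changed after LPS also varied among clusters of LPS-treated cells. These values describe the clusters with no test. Of the 19 members called higher after LPS at either age, 17 had their highest level in cluster 9. The cytokine genes Csf3 and Cxcl2 led cluster 9. This cluster held 25.5% and 13.5% of AE2-like cells in old LPS libraries 1 and 2, 0.496% and 0.809% in young LPS libraries, and none in controls. All 8 members called lower had their lowest level in cluster 8, led by interferon-induced genes. Both clusters came almost wholly from LPS libraries, and the members were chosen by LPS against control, so these counts were partly fixed in advance. Pooled over libraries, the family also took its highest share of UMIs in cluster 9 (10.7%) and its lowest in cluster 8 (8.67%). Cells of old mice made up 97.4% of cluster 9 and 26.3% of cluster 8, so age differed between them. Cluster 8 was lowest in young LPS libraries 1 and 2 (8.29% and 8.61%), among clusters with at least 20 cells. In old LPS libraries it was not, at 9.662% and 8.995%, above cluster 6 (8.385% and 8.918%). In old LPS library 2 cluster 9 (10.57%) lay below cluster 2 (10.72%, 38 cells). Rpl13a, called lower, was also highest in cluster 9 (117.6 CPM). The same count over all members was not made. Rps2 stood at 1521 CPM in cluster 9, 1305 CPM in cluster 3 (led by Cxcl1 and Il4i1) and 1026 CPM in cluster 8, against 612 and 617 CPM in clusters 1 and 2, which came mostly from control mice. Rplp0 stood at 2633 CPM in cluster 9 against 1372 CPM in cluster 1. Rpl21 stood at 1621 CPM in cluster 8 against 2583 CPM in cluster 1. Rps2 and Rplp0 were thus higher in the LPS-derived clusters 3, 8 and 9 than in clusters 1 and 2. The 2 old LPS libraries differed in Rps2 and in their share of cluster 9, but Rps2 was lower in lane 2 in every group. Whether these differences are linked was not tested.

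Ciliated-like cells, the second epithelial class present in all libraries, were tested in the same way after the AE2-like results had been seen. They formed 2 clusters, of which cluster 10, led by AU040972, Gpx2 and Cd24a, came to 99.6% from LPS libraries and cluster 12, led by Sec14l3 and Ccdc153, to 14.9%, so different clusters held most of the LPS and of the control cells. In 7907 genes tested, 77 of them members, 3 members rose in the young (5.29% of all genes were called higher) and 0 fell (3.28% called lower). In the old 7 rose (5.7%) and 0 fell (3.53%). At an unadjusted p below 0.05, 0 members were lower in the young and 1 in the old, and DESeq2 called 0 in the young and 3 higher and 0 lower in the old. The medians of the members were 0.13 in the young and 0.21 in the old, beside 0.0031 and -0.010 over all genes. Rps2 stood at 702 and 679 CPM in young LPS ciliated-like sums, against 478 and 487 CPM in young control, and at 709 and 644 CPM in old LPS, against 438 and 411 CPM in old control. Rplp0 stood at 1206 and 1319.5 CPM in young LPS, against 863 and 1039 CPM in young control, and at 1262 and 1251 CPM in old LPS, against 787 and 807 CPM in old control. For both genes every LPS library lay above every control library, and both were called at both ages (Rps2 0.52 ± 0.13 and 0.67 ± 0.13, adjusted p = 0.0077 and 0.00035; Rplp0 0.42 ± 0.12 and 0.66 ± 0.12, adjusted p = 0.031 and 0.00032, edgeR's quasi-likelihood test). Rpl8, at the peptidyl transferase side of the large subunit, was also called in the young (0.38 ± 0.12, adjusted p = 0.0499), and Rpsa, Rpl39, Rps6, Rpl6 and Rps27a in the old, with Rpsa at 0.60 ± 0.13 (adjusted p = 0.0014, edgeR).

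None of the 8 members called lower in AE2-like cells was called lower in ciliated-like cells. Rps19 had log2 fold changes of 0.042 in the young and 0.26 in the old there, and Rpl21 of -0.063 and 0.072, none of them called. Of the 19 members called higher in AE2-like cells, 19 in the young and 17 in the old had a positive value in ciliated-like cells. Most of the family was positive there, with 62 of all 77 members tested in the young and 70 in the old. Of the 8 called lower, 6 and 3 had a negative value. The 8 AE2 markers together stood at 3606 to 7680 CPM in ciliated-like LPS sums and 5692 to 18976 CPM in ciliated-like control sums, far below their level in AE2-like cells. These ranges overlapped, and the highest value was that of young control library 2. The difference between the classes was not tested. With age, 0 members were called in ciliated-like cells, in controls (0.253% of all genes higher and 0.114% lower), after LPS (0.278% and 0.847%) or for the interaction (0.0885% and 0.152%), with medians of -0.13 in controls and -0.05 after LPS and 15 and 21 of 77 members above 0. At an unadjusted p below 0.05 stood 5 members lower in old controls and 1 lower after LPS, and DESeq2 called 0.

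**Figure D3:**
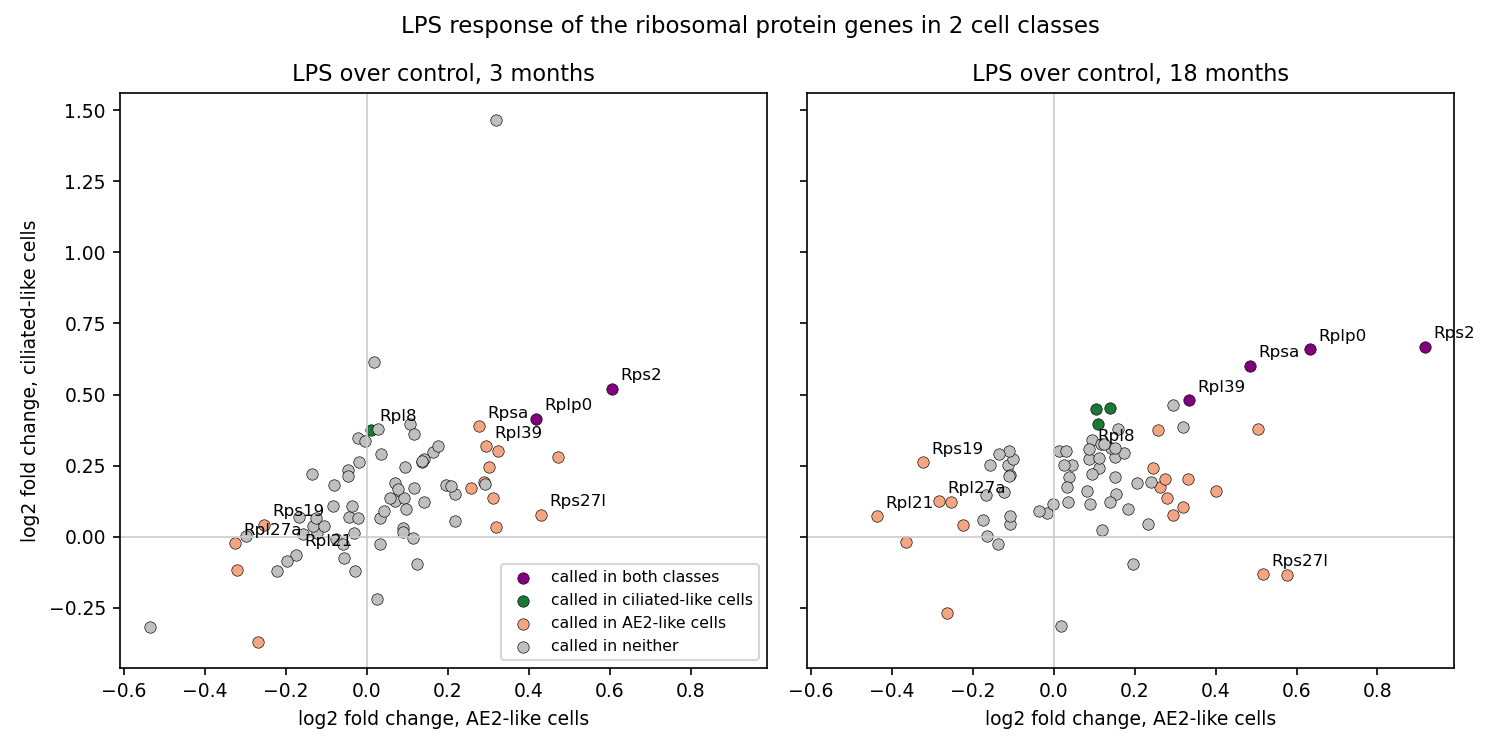
Log2 fold change of LPS over control for 77 members in AE2-like cells (x axis) and ciliated-like cells (y axis), at 3 months (left) and 18 months (right), coloured by calls at an adjusted p below 0.05. Rps2 and Rplp0 lie at the upper right at both ages, and at 18 months Rps19, Rpl27a and Rpl21 lie left of 0 but above 0 on the y axis.

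No single member was called with age in controls. Between old control and young control libraries 0 members were called higher or lower (0.237% and 0.369% of all genes were called), with 2 members, Rpl21 and Rpl17, at an unadjusted p below 0.05 in edgeR and 0 called by DESeq2. The median log2 fold change was 0.11, beside 0.0024 over all genes, and 73 of 80 members were above 0. Between old LPS and young LPS libraries 1 member rose (1.63% of all genes) and 0 fell (2.42%), with a median of 0.14 beside 0.0049 over all genes and 75 of 80 above 0; 19 were higher at an unadjusted p below 0.05. That member was Rpl13a, a large subunit protein known in human monocytic cells for silencing the translation of inflammatory mRNAs after its release from the ribosome. Rpl13a stood at 100.1 and 109 CPM in old LPS, against 82.9 and 80.6 CPM in young LPS, while it stood at 102 and 105 CPM in old control, against 94.5 and 102 CPM in young control. Its level was thus lowest in the young LPS libraries and alike in the other 3 groups (log2 fold change 0.36 ± 0.09, adjusted p = 0.039, edgeR's quasi-likelihood test). The count of 1 was 15 without old LPS library 2, 2 without old LPS library 1 and 0 without each of the other 6 libraries. It was 5 with no filter on low counts, and 0 by DESeq2 or with all deposited barcodes. Scaled to the family, edgeR called 0 members with age in controls (0.176% and 0.791% of all genes) or after LPS (0.879% and 5.59%), with 0 at an unadjusted p below 0.05 in controls and 1 in each direction after LPS.

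The LPS response was also compared between the ages directly. The interaction of LPS and age called 0 members in either direction in edgeR's quasi-likelihood test (0.352% and 0.316% of all genes) and 0 by DESeq2. At an unadjusted p below 0.05 stood 1 member, Rpl13a, with 0.29 on the log2 scale and an adjusted p = 0.48 in edgeR's quasi-likelihood test. Rps2, whose fold was larger in the old, and Rpl21, whose fall was called in the old alone, were therefore not shown to respond differently at the 2 ages.

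Between cell classes the family's share of mRNA spanned a wide range. It averaged 5.62% ± 0.31 (SD, n = 8 libraries) in ciliated-like, 5.77% ± 1.02 (n = 4) in club/secretory-like, 13.5% ± 0.21 (n = 5) in alveolar macrophage-like, 20.3% ± 3.505 (n = 8) in dendritic-like and 23.2% ± 0.48 (n = 3) in monocyte/macrophage-like cells, against 9.25% ± 0.52 (n = 8) in AE2-like cells. Within each library, dendritic-like cells were above AE2-like cells in 8 of 8 and alveolar macrophage-like cells in 5 of 5, and ciliated-like cells were below in 8 of 8. Club/secretory-like cells were below in 4 of 4. Yet over the UMIs outside the 10 most abundant genes of each class they stood at 14.7% and AE2-like cells at 13.99%. On that scale alveolar macrophage-like cells stood at 15.6%, nearer to AE2-like cells than on the scale of all UMIs. Small subunit genes held 42.2% of the family's UMIs in ciliated-like and 48.1% in dendritic-like cells.

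**Figure D4:**
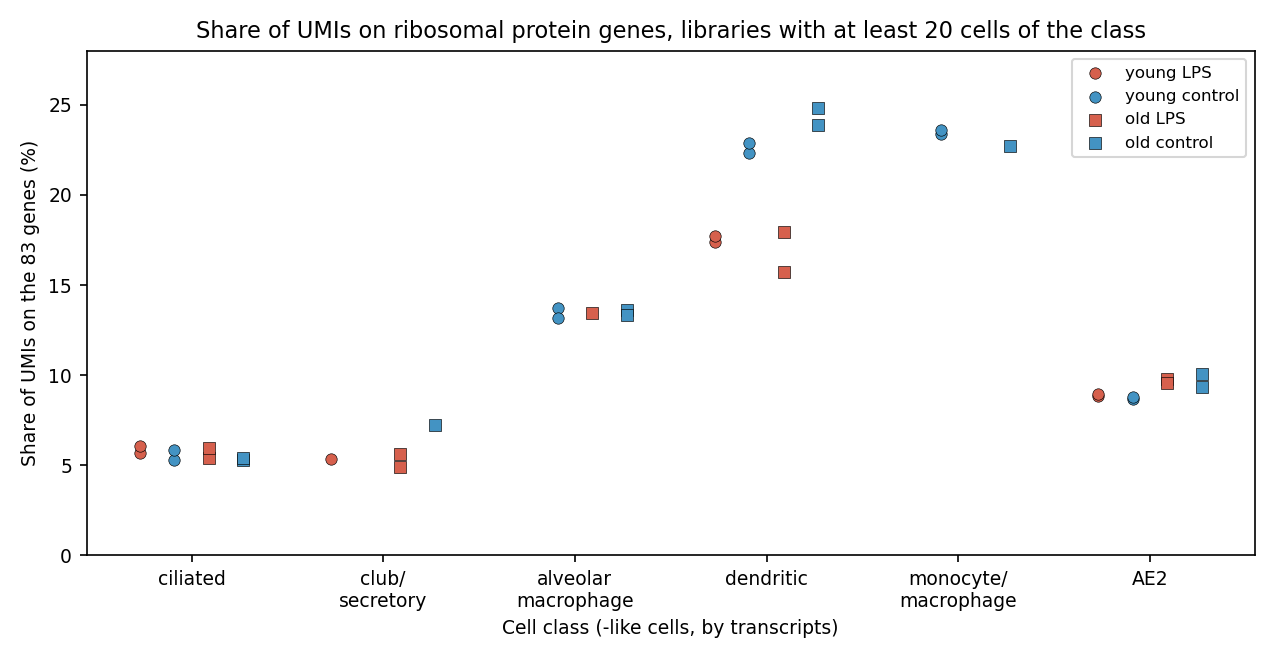
Share of UMIs on the 83 genes (y axis, percent) by cell class (x axis), 1 point per library with at least 20 cells of the class, red for LPS and blue for control, circles for young and squares for old. Ciliated-like libraries lie between 5.27% and 6.06%, all below the AE2-like libraries, and among dendritic-like cells the LPS libraries lie below the control libraries.

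Dendritic-like cells had a lower share after LPS, at 17.4% and 17.7% in young LPS against 22.3% and 22.9% in young control, and at 15.7% and 17.9% in old LPS against 24.8% and 23.9% in old control. The groups did not overlap. They were made up of different cells: cluster 15, led by Ccr7, Fscn1 and Ccl22, genes of migratory dendritic cells, held 65.0% to 86.4% of dendritic-like cells in LPS libraries, against 13.95% to 17.9% in control libraries. The family held 15.7% of UMIs in cluster 15 and 24.7% in cluster 13. Within cluster 15 the share was 13.9% to 16.6% in LPS libraries against 16.1% to 18.8% in controls, and within cluster 13 it was 19.99% to 25.7% against 23.2% to 26.1%, with under 20 cells in 8 of these 16 sums. These were every control sum of cluster 15 (5 to 18 cells) and every LPS sum of cluster 13 (8 to 15 cells), so 1 side of each comparison rests on few cells.

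Set against AE2-like cells of the same libraries, 77 of 80 members were lower in ciliated-like cells (34% of the 9349 genes tested were called lower) and 0 higher (32.7%), and 73 were higher in dendritic-like cells (27.7%) and 2 lower (35.4%). In alveolar macrophage-like cells 6 were higher (25.1%) and 33 lower (32.6%), and in club/secretory-like cells 6 were higher (10.7%) and 2 lower (11.5%), all by edgeR's quasi-likelihood test with library as a block. For these 2 classes the direction depended on the scale. After TMM scaling the members' median log2 fold change was -0.24 in macrophage-like cells, although their share of UMIs was 13.5% against 9.25% in AE2-like cells. In club/secretory-like cells the median was 0.11, although the share was 5.77%. The median of the members minus that of all genes was -1.42 in ciliated-like, 0.20 in club/secretory-like, -0.063 in alveolar macrophage-like and 0.90 in dendritic-like cells on the log2 scale, and it stood at -1.41, 0.21, -0.045 and 0.90 with DESeq2's size factors, which placed the median of all genes at 0.10 in ciliated-like cells, where TMM placed it at -0.048, and at 0.022 in club/secretory-like cells, where TMM placed it at -0.092. With these factors 17 members were higher and 2 lower in club/secretory-like cells. Without young control library 1 or old control library 2 the macrophage count was 3 higher, and with sums of at least 50 cells only it was 2 higher and 3 lower; the club/secretory-like count of higher members ran between 1 and 6 over the leave-outs.

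**Figure D5:**
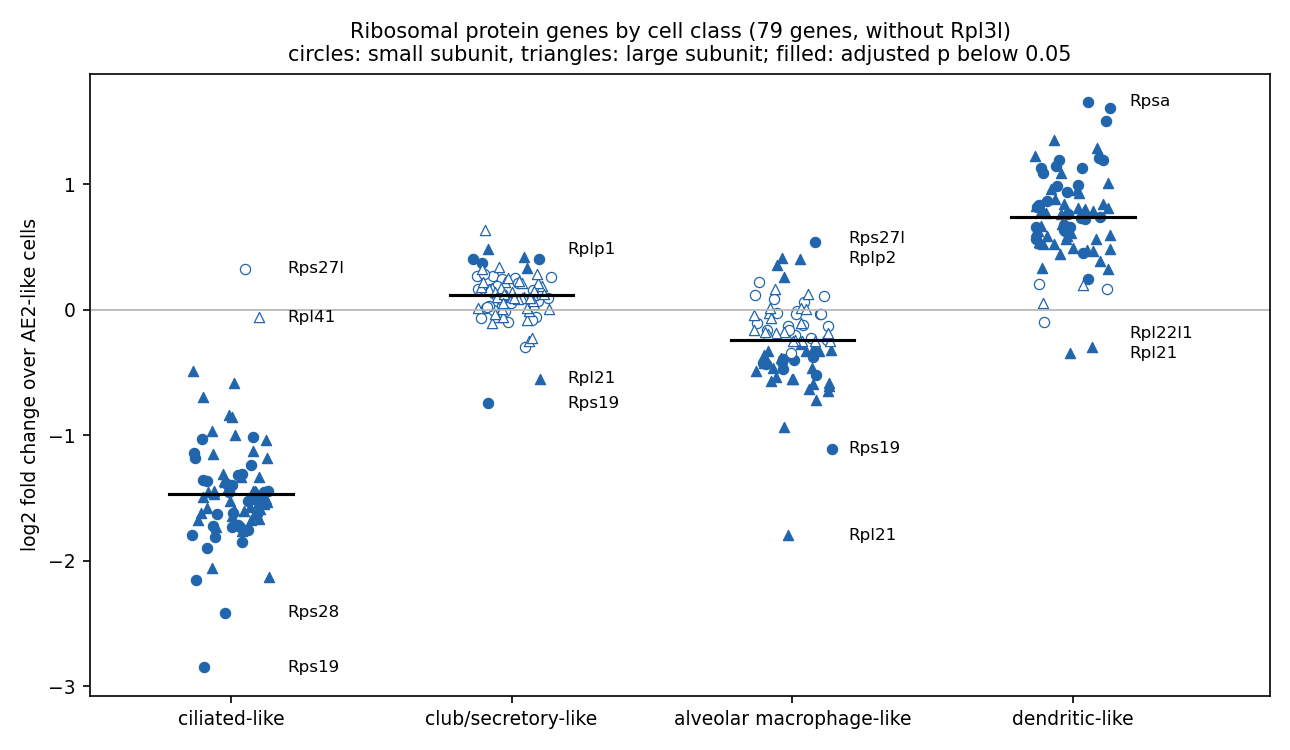
Log2 fold change of 79 members (all tested but Rpl3l) over AE2-like cells (y axis) in 4 cell classes (x axis), circles for the small and triangles for the large subunit, filled where the adjusted p in edgeR's quasi-likelihood test was below 0.05, with a bar at the median. In ciliated-like cells Rps19 and Rps28 lie lowest while Rps27l and Rpl41 lie near 0, and Rpl21 lies at the lower end in all 4 classes.

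Rps19 and Rpl21 were lower than in AE2-like cells in several classes. On the scale shared by the classes, Rps19 averaged 565 ± 50.4 CPM (SD, n = 8) in ciliated-like, 2477 ± 443 (n = 4) in club/secretory-like and 1947 ± 147 (n = 5) in alveolar macrophage-like cells, against 4095 ± 686 (n = 8) in AE2-like cells. The log2 fold changes were -2.85 ± 0.10, -0.74 ± 0.12 and -1.11 ± 0.11 (adjusted p = 3.64e-24, 1.52e-05 and 1.22e-10, edgeR's quasi-likelihood test). Rpl21 averaged 614 ± 45.1 CPM in ciliated-like, 834 ± 86.9 in alveolar macrophage-like and 2143 ± 349 in dendritic-like cells, against 2724 ± 483 in AE2-like cells. It was lower in each tested class, also in dendritic-like cells (-0.35 ± 0.09, adjusted p = 0.000688, edgeR), where 73 members were higher. Scaled to the family, Rps19 and Rpl21 were lower than in AE2-like cells in all 4 classes. On that scale, added after the data were seen, 17 members were higher (76.9% of all genes) and 17 lower (7.53%) in ciliated-like, 1 higher (9.47%) and 3 lower (12.2%) in club/secretory-like, 13 higher (29.2%) and 13 lower (25%) in alveolar macrophage-like, and 16 higher (15.1%) and 22 lower (61.4%) in dendritic-like cells.

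Further members with large departures are given by class. Rpl41, a very short and basic peptide of the large subunit, averaged 2152 ± 233 CPM in ciliated-like cells, against 2243 ± 183 CPM in AE2-like cells (-0.062 ± 0.079, adjusted p = 0.51, edgeR), so relative to the family it was higher by 1.41 on the log2 scale. Rps27l, a paralogue of Rps27 known as a p53 target, averaged 417 ± 25.4 CPM in ciliated-like cells, against 338 ± 49.6 CPM in AE2-like cells (0.33 ± 0.18, adjusted p = 0.11, edgeR), and higher by 1.83 relative to the family. Rps28, a small subunit protein, was low there, at 288 ± 42.0 CPM against 1552 ± 232 CPM (-2.42 ± 0.11). In dendritic-like cells Rpsa averaged 5090.1 ± 509 CPM against 1628 ± 215 CPM in AE2-like cells, the largest rise of a member in that class (1.66 ± 0.10) after Rpl3l, which had 9 UMIs there. In alveolar macrophage-like cells the higher members included the stalk proteins Rplp1 (0.40 ± 0.12) and Rplp2 (0.41 ± 0.13), Rpl39 (0.35 ± 0.13) and Rps27l (0.54 ± 0.21).

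Paralogues were compared with the members they are named after, here called parents. Whether their proteins take the parent's place in the ribosome was not measured. Rpl22l1, which mouse Rpl22 represses, made up 42.6% and 42.8% of Rpl22 plus Rpl22l1 UMIs in young LPS AE2-like cells, against 36.4% and 33.0% in young control. In the old it made up 36.6% and 38.9% after LPS, against 31.8% and 32.9% in controls. Within each age the LPS libraries were higher, with Rpl22l1 itself at a log2 fold change of 0.32 ± 0.10 in the young (adjusted p = 0.013, edgeR's quasi-likelihood test) and 0.23 ± 0.10 in the old (adjusted p = 0.054), while Rpl22 had -0.17 and -0.11 (adjusted p = 0.14 and 0.3). The share of Rpl22l1 averaged 54.0% ± 2.99 (SD, n = 8) in ciliated-like and 21.8% ± 7.39 (n = 8) in dendritic-like cells, against 36.9% ± 4.30 (n = 8) in AE2-like cells.

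Rpl7l1, a paralogue of Rpl7, stood at 57.6 and 49.2 CPM in young LPS AE2-like cells, against 37.4 and 39.2 CPM in young control, and at 61.9 and 56.2 CPM in old LPS, against 40.1 and 39.0 CPM in old control. All LPS libraries were higher (0.47 ± 0.11 and 0.58 ± 0.11, adjusted p = 0.0035 and 0.00038, edgeR's quasi-likelihood test), and Rpl7l1 reached 4.52% of the pair in young LPS against 3.13% in young control, and 4.71% in old LPS against 2.93% in old control, each a mean of 2 libraries. Rps27l stood at 298 and 309.7 CPM in young LPS, against 218.5 and 232 CPM in young control, and at 366 and 306 CPM in old LPS, against 236 and 233 CPM in old control. Its groups did not overlap either (0.43 ± 0.10 and 0.52 ± 0.10, adjusted p = 0.0027 and 0.00044, edgeR); its parent Rps27 shares reads with a copy, so no share of that pair is given.

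Rpl3l, the striated-muscle paralogue of Rpl3, was nearly absent from AE2-like cells but was detected in alveolar macrophage-like and dendritic-like cells. It is counted among the members called higher in both. It did not pass the low-count filter in AE2-like cells and entered the class fit through its level in other classes, so these calls add nothing to the counts below. It had 88 UMIs in alveolar macrophage-like cells, or 30.9 CPM without scaling (95% exact binomial interval 24.8 to 38.1), in 7 of 8 libraries, against 2 UMIs in AE2-like cells, or 0.0301 CPM (0.00365 to 0.109). The ratio was 1026, with a counting interval of 276 to 8607. The counts were 1 and 0 in young LPS, 7 and 5 in young control, 3 and 11 in old LPS, and 7 and 54 in old control libraries, so that old control library 2 held most of them. That library also held 1574836 of the 2846190 UMIs of the class, and without it the level was 26.7 CPM. Class UMIs per library ran from 41301 to 1574836, so the counts alone do not compare the groups. Dendritic-like cells had 9 UMIs of Rpl3l in 4 libraries, or 3.65 CPM, a ratio of 121 (25.1 to 1153). Rpl3l made up 2.27% ± 0.48 (SD, n = 5 libraries) of Rpl3 plus Rpl3l UMIs in alveolar macrophage-like cells. Rpl39l, known from testis, had 29 UMIs in alveolar macrophage-like cells (10.2 CPM, 4 libraries), against 5 in AE2-like cells, a ratio of 135 (51.8 to 448). Old LPS libraries 1 and 2 held 10 and 15 of them, and young control library 1 and old control library 2 held 3 and 1. The level was 5.67 CPM without old LPS library 2 and 22.02 CPM without old control library 2. Ciliated-like cells had 0 UMIs of Rpl39l, for which the exact interval reaches 0.699 CPM (3 counts of the total would be 0.569 CPM). Rpl10l, also known from testis, had 4 UMIs in AE2-like cells and 1 in alveolar macrophage-like cells. These intervals cover counting error only.

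Lists of other genes of ribosome production and translation were counted in the same fit of AE2-like cells, where 21.9% of all genes were called higher after LPS in the young and 25.2% in the old. Of 76 mitochondrial ribosomal protein genes, 45 rose and 2 fell in the young and 58 rose and 1 fell in the old, with Mrpl11 at 1.42 ± 0.15 and 1.44 ± 0.14 on the log2 scale. Of 61 ribosome biogenesis genes, 21 rose and 5 fell in the young and 31 rose and 2 fell in the old; Eif6, which keeps the subunits apart until the large one is mature, had 1.31 ± 0.13 and 1.52 ± 0.13, and Ltv1, a small subunit assembly factor, 0.87 ± 0.16 and 1.38 ± 0.15. Of 30 initiation factors, 18 rose and 1 fell in the young and 19 rose and 2 fell in the old, with the helicase gene Eif4a1 at 1.01 ± 0.11 and 1.48 ± 0.11 and its paralogue Eif4a2 at -1.24 ± 0.13 and -0.65 ± 0.13. The medians of these 3 lists were 0.39, 0.23 and 0.40 in the young and 0.50, 0.42 and 0.34 in the old. Between old LPS and young LPS libraries, 7 biogenesis genes were higher, among them Nop58, a core protein of the particles that methylate ribosomal RNA (0.83 ± 0.14, adjusted p = 0.00286, edgeR's quasi-likelihood test), where 1.63% of all genes were called higher.

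Of 17 other mRNAs known for a terminal oligopyrimidine tract, 1 rose and 7 fell in the young and 2 rose and 7 fell in the old, with medians of -0.22 and -0.12, where 18.4% and 23.4% of all genes were called lower. Eef2, the translocation factor, had -0.65 ± 0.11 at both ages, the initiation factor Eif4b -0.73 ± 0.18 and -0.78 ± 0.17, and the elongation factor Eef1a1 -0.33 ± 0.10 and -0.34 ± 0.10. Of 12 genes of mTOR-linked translation control, 3 rose and 1 fell in the young and 4 rose and 2 fell in the old; Eif4ebp1, a repressor of cap-dependent initiation, had 0.69 ± 0.15 and 1.35 ± 0.14. Of the 4 ribosomal proteins outside the naming rule, Rpl36al rose at both ages (0.70 ± 0.09 and 0.46 ± 0.09) and Fau fell in the old (-0.29 ± 0.10). Of 7 pseudogene rows tested, 0 rose and 1 fell in the young, and 2 rose and 0 fell in the old.

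The lanes themselves left a mark on some members. Averaged over the 4 groups, 8 of 80 members were higher in lane 2 by more than 0.25 on the log2 scale, led by Rpl35 (0.67), Rps27 (0.63) and Rpl36a (0.60), and Rps2 alone was lower by more than that (-0.30), while the median was -0.036. Every group held both lanes. In the annotation 22 members overlapped another gene, 20 of them on the opposite strand, such as Rps2 with Snhg9 (60449 against 44 UMIs in AE2-like cells) and Rpl35 with Arpc5l (4635 against 4644 UMIs); whether strand was used in counting is not given in the sources used here.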

How the data were processed

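Single cells of 4 groups (young or old, LPS or control) were sequenced on 2 lanes with the 10x 3′ v3 kit, per the labels' protocols. The authors deposited 8 tables of whole UMI counts, genes by cell barcodes, without normalization. The submitters' processing notes name bcl2fastq, STAR, Cell Ranger 3.1.0, R 3.6.3 and Seurat (3.1.5 and 3.1), and build mm10. The sources used here do not give their order, the use of strand, the treatment of reads that match several places or the hashtag assignment. UMIs were assigned to symbols through GENCODE mouse release 21. A separate barcode list was left aside. Values of a few members are not reported here by name.

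Barcodes with under 500 genes or over 20% mitochondrial UMIs were left out (2803 of 14048). Scrublet in scanpy 1.11.5 marked 13 of 11245 cells (0.116%) as doublets, too few to count as a working call, so leaving out the highest 3% of scores was added. No barcode was shared within a lane, and 2 barcode sequences occurred in both lanes. The remaining 11232 cells were clustered without the 83 genes (2000 variable genes, 30 principal components, leidenalg 0.10.2 at resolution 1) into 20 clusters, named "-like" from marker lists of 21 classes.

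UMIs were summed per library and class. All 8 AE2-like sums entered 1 robust quasi-likelihood fit in edgeR 4.0.16 (R 4.3.3) with TMM scaling, filterByExpr (11378 genes), 4 residual degrees of freedom and Benjamini-Hochberg adjustment over all genes; the biological coefficient of variation was 0.0885. A second fit used the summed UMIs of the members as library size. Classes were compared with AE2-like cells in a fit with library as a block (sums of at least 20 cells, 9349 genes, 21 residual degrees of freedom). The test of AE2-like sums was run on simulated counts. Few genes changed there, all genes had the same variation between libraries, and no lane effect was added. These settings differ from the data, so that run does not show how reliable the calls are here. Lanes pair the groups, since per the labels each lane is a separate replicate experiment holding all 4 groups; deviations from the group means correlated between same-lane libraries with r from -0.033 to 0.316 over 4577 genes, and the fit with the lane as a block is given as an alternative. Members to print were the called members with the largest changes and the same sign in both lanes, those departing most from the family, both members of paralogue pairs and the most abundant ones. The family, the lists and these rules were chosen with earlier results of these data known. Alternatives were DESeq2 1.42.0 (its size factors and its Wald test), no filter on low counts, a 10% mitochondrial limit, all deposited barcodes, the replicate block and each library left out, where the lone library of a group was assumed to vary like the other groups. The 3% doublet limit, the family scaling of classes and the ciliated-like cells were added after the data were seen.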

Additional observations from a re-analysis of the deposited data

Results flagged for a closer look

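Of the 23 members called after LPS in AE2-like cells of old mice, 5 had log2 ratios of the opposite sign in ciliated-like cells in both lanes. None of the 5 passed the test in ciliated-like cells, and the difference between the classes was not tested. In old ciliated-like cells 70 of all 77 members tested had a positive value, so members lower in AE2-like cells would often differ in sign. The same count over all members was not made. The mean log2 ratio of LPS to control in AE2-like cells minus that in ciliated-like cells was -0.58 for Rps19 (lanes 1 and 2 at -0.35 and -0.29 in AE2-like cells, and at 0.23 and 0.28 in ciliated-like cells). It was -0.50 for Rpl21, -0.40 for Rpl27a and -0.38 for Rps14, all lower after LPS in AE2-like cells and higher in ciliated-like cells. It was 0.65 for Rps27l, which was higher in AE2-like cells (0.63 and 0.39) and lower in ciliated-like cells (-0.13 and -0.15).

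With age, the family's share of UMIs was higher in AE2-like cells of old control libraries (by 1.40 and 0.54 percentage points over young control in lanes 1 and 2) and lower in their ciliated-like cells (-0.048 and -0.45), a difference of 1.22 points that was not tested. After LPS the old libraries exceeded the young by 0.95 and 0.60 points in AE2-like cells and were lower in ciliated-like cells (-0.25 and -0.12), a difference of 0.97 points that was not tested. Rpl13a was higher in old LPS than in young LPS libraries in AE2-like cells (0.27 and 0.44) and lower in ciliated-like cells (-0.072 and -0.37), a difference of 0.58 on the log2 scale that was not tested.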

How the results depend on the processing

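In the young, 12 members rose and 4 fell after LPS. These counts became 7 and 2 by DESeq2's Wald test, 4 and 0 with all deposited barcodes and 3 and 0 in ciliated-like cells, and the replicate block gave 7 that fell. In the old (16 and 7), 4 fell by DESeq2, 4 rose and 0 fell with all barcodes, and 7 rose and 0 fell in ciliated-like cells. The single member higher in old LPS than in young LPS became 5 with no filter, and 0 by DESeq2, with all barcodes and in ciliated-like cells. Leaving out each library gave 3 to 16 and 0 to 8 in the young, 9 to 20 and 1 to 12 in the old, and 0 to 15 higher with age after LPS; the interaction gave 0 to 1 higher. Of the members departing from the family in the old, 7 were lower; the replicate block gave 11 and the median of member ratios 13. Leave-outs gave 1 to 14 higher and 1 to 11 lower in the young, 7 to 15 and 4 to 15 in the old, and 0 to 3 and 0 to 1 with age after LPS. The block ended none of the 28 calls of named members and changed no other count by over 1.5 times. The cause of these changes was not tested.

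Between classes, DESeq2's size factors gave 1 higher in ciliated-like cells, 17 higher in club/secretory-like cells and 1 lower in dendritic-like cells. Sums of at least 50 cells gave 2 and 3 in alveolar macrophage-like cells, 0 and 0 in club/secretory-like cells and 1 lower in dendritic-like cells. Scaled to the summed UMIs of the members, 13 were higher and 13 lower in macrophage-like, 17 and 17 in ciliated-like, 1 higher in club/secretory-like and 16 and 22 in dendritic-like cells. Leave-outs gave 3 to 7 higher in macrophage-like and 1 to 6 higher in club/secretory-like cells.

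The family share in AE2-like cells over UMIs outside the 10 most abundant genes averaged 12.8% in young LPS, 14.1% in young control, 13.9% in old LPS and 15.1% in old control. With the 10% mitochondrial limit it was 8.86% in young control, and as a median over cells 8.64% in young LPS, 8.61% in young control and 9.32% in old LPS. In ciliated-like cells the fitted value had the opposite sign, without passing the test, for Rps19 in the young (0.042), and in the old for Rpl7l1 (-0.14), Rps27l (-0.13), Rpl21 (0.072), Rps19 (0.26), Rpl27a (0.12), Rps14 (0.12) and Rps15 (0.040), and for Rpl13a with age after LPS (-0.22). With 2 libraries per group and 4 residual degrees of freedom, calls such as Rps2 in the young and Rps15 in the old passed narrowly (adjusted p = 0.047 and 0.042, edgeR), and depth limits Rpl3l, Rpl39l and Rpl10l.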
